A study of Homo sapiens with 8 samples.

Results

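Transcripts of 51 interferon-stimulated genes and RNA sensors were followed in the triple-negative human breast cancer cell line MDA-MB-231 after ESRRA had been lowered with siRNAs. The members were chosen by symbol, as the rows of a count table for 51 listed genes, and all 51 had a row among the 23368 symbols. Cells received 1 of 3 siRNAs directed against ESRRA (siE1, siE2 or siE3) or a control siRNA (siC), and each siRNA had 2 libraries, 8 in all. ESRRA encodes ERRα, an orphan nuclear receptor known as a regulator of mitochondrial energy genes. Cells of all 4 groups were grown in DMEM with serum and transfected with the reagent INTERFERin, so the siC cells had also received a short double-stranded RNA. Untransfected cells were not analysed here, and 1 cell line stands for all results. The labels do not say that duplicates are separate cultures, and the spread behind each p-value may then be technical.

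Type I interferon is released by cells that detect foreign nucleic acid. RIG-I (DDX58), MDA5 (IFIH1) and TLR3 bind double-stranded RNA and signal to the transcription factors IRF3 and IRF7, which switch on the interferon-β gene IFNB1. Secreted interferon acts through a receptor and JAK kinases on a complex that holds STAT2 and IRF9, and this complex binds the interferon-stimulated response element, a repeat of GAAA, in the promoters of many genes whose products block viral replication. Some of those genes are also transcribed at a basal level, or through IRF1 and NF-κB, without interferon.

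The response element was looked for in promoter windows from RefSeq (build GRCh38.p14, 250 bases before to 50 bases after a gene's start), which matched 39 of the 51 members by symbol or synonym. The search word was GAAANNGAAA on both strands, read as TTTCNNTTTC on the other strand, and neighbouring matches could overlap. It was present for 26 of the 39 matched members (66.7%), against 1195 of 27305 genes in the whole table (4.38%). By single windows, the shares were 30 of 50 (60%) for members and 1255 of 35116 (3.57%) overall. The word TTCNNNGAA, bound by STAT dimers and able to share bases with the first word, was present for 12 of the 39 matched members (30.8%) and for 9.38% of all genes. A match describes these letters in this window and is not evidence of binding. Among matched and tested members, the response element word was present for 12 of the 16 that were raised by 2 or 3 siRNAs and for 9 of the 15 raised by 1 or none. The stretches below belong to members described in the following paragraphs, chosen with their values known, with matches to GAAANNGAAA, on either strand, in capitals. The first 6 rose with 2 or 3 siRNAs.
IFIT1 (chr10:89392492-89392544, plus strand): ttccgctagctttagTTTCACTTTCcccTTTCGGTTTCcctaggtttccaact
IFIT3 (chr10:89332463-89332502, plus strand): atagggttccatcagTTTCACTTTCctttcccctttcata
ISG15 (chr1:1013369-1013414, plus strand): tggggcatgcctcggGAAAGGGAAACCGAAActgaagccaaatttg
ISG20 (chr15:88638932-88638971, plus strand): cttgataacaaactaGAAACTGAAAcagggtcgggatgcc
IFIH1 (chr2:162318681-162318720, minus strand): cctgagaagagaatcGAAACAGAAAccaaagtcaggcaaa
GBP1 (chr1:89065311-89065350, minus strand): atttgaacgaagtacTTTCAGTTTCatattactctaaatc
The next 3 fell with siE2, and the DTX3L stretch is also part of a PARP9 promoter window, in the opposite orientation.
DTX3L (chr3:122564317-122564356, plus strand): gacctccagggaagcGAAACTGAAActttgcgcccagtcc
EIF2AK2 (chr2:37156962-37157001, minus strand): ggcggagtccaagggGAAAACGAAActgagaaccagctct
OAS3 (chr12:112938316-112938355, plus strand): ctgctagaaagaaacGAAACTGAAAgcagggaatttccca
The word was present in windows of members that rose and of members that fell, but the printed stretches come only from members with a match and a call. Among members called with no siRNA, IFIT5 had the word and HERC6 and SP100 did not, while OAS2, IRF2 and IRF3 were not matched. The word was absent for IFI35, IRF1 and IRF9, which rose with all 3 siRNAs, and for ADAR, which fell with siE1 and siE3.

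Total counts were 21835995 to 25880548 per library. ESRRA itself had 10.3 and 10.5 CPM in siE1 cells, 8.86 and 7.25 in siE2 cells, 8.55 and 8.31 in siE3 cells, and 62.9 and 64.8 in siC cells, and its log2 fold changes were -2.62 ± 0.0857 with siE1, -2.99 ± 0.0896 with siE2 and -2.92 ± 0.0894 with siE3 (edgeR adjusted p = 7.2e-12, 6.0e-12 and 4.9e-12). Here CPM is the count relative to library size, scaled with the TMM method of edgeR, and log2 fold changes are siRNA over siC. Values after ± are standard errors of the log2 fold change, derived from the edgeR test over all 8 libraries (2 libraries per group). The line's own markers ranged from SPARC, with 120 to 431 counts, to VIM, with 73202 counts or more in every library. Their levels differed between groups (log2 fold changes at edgeR adjusted p below 0.05). AXL rose with siE1, siE2 and siE3 (0.43, 0.65 and 0.27) and SPARC with siE1 and siE3 (1.44 and 0.49). CAV1 rose with siE2 (0.59) and fell with siE3 (-0.15). CD44 fell with siE1 (-0.24) and rose with siE2 (0.20). VIM fell with siE2 (-0.19) and rose with siE3 (0.15), and EGFR fell with siE3 (-0.25). Of 5 markers of luminal breast cells, ESR1 and PGR had at most 1 count. The others were present, with 60 to 100 counts for GATA3, 64 to 146 for FOXA1 and 229 to 297 for EPCAM. FOXA1 was lower with siE1 and siE2 (log2 fold changes -0.43 and -0.83, edgeR adjusted p = 0.047 and 0.0011). GATA3 was higher with siE2 (0.51, edgeR adjusted p = 0.028). Of 11 markers of blood and immune cells, CD3E, CLEC4C and HBB were at 0 in every library and PTPRC had 0 to 2 counts. CD68, which also marks lysosomes of other cells, had 4690 to 11184 counts and rose with all 3 siRNAs, by 0.95, 0.41 and 0.56 on the log2 scale (edgeR adjusted p = 2.0e-10, 1.2e-06 and 9.1e-08). CD14 of macrophages rose with siE1 (4 to 18 counts over all libraries, edgeR adjusted p = 0.0023), and PECAM1 of endothelial cells rose with siE2 (3 to 16 counts, edgeR adjusted p = 0.0031). Of the other endothelial markers, CDH5 was at -0.13, -0.34 and -0.85 with siE1, siE2 and siE3, without a call (7 to 21 counts). VWF had 1 to 10 counts and was not tested. Of 4 fibroblast markers, DCN and LUM were at 0, PDGFRA had 0 to 5 counts and COL1A1 had 91 to 230. COL1A1 rose with siE2 (0.64, edgeR adjusted p = 0.0015). The 10 blood markers other than CD68 together had 30 to 34 counts in the siE1 libraries, 14 to 20 with siE2 and 11 to 18 with siE3, against 8 and 9 with siC, and the part of all these markers in the results below was not tested.

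More of the members rose than fell with each siRNA, among the 41 that passed the filter on low counts. With siE1, 17 rose and 2 fell (edgeR adjusted p below 0.05), while 24.5% and 25.8% of all 13395 tested genes rose and fell. With siE2, 21 rose and 6 fell, against 27.9% and 28.5% of all genes. With siE3, 16 rose and 1 fell, against 21.3% and 20.8% of all genes. In the average of the 3 siRNAs, 22 rose and 4 fell, against 23.4% and 27.7% of all genes. The share of members called in either direction was 46.3%, 65.9% and 41.5% with siE1, siE2 and siE3, against 50.3%, 56.4% and 42.1% of all genes. In these cultures, fewer cells carrying a transcript and less of it per cell cannot be told apart. Median log2 fold changes of the tested members were 0.31 with siE1, 0.39 with siE2 and 0.19 with siE3, and those of all tested genes were -0.01, 0.01 and -0.00. Of the 41, 37 reached the filter's level of 0.441 CPM in both siC libraries, and MX1, OAS2, XAF1 and TLR3 did not. These 4 passed through libraries of the siRNA groups, so calls among them could hardly be lower. The rises counted above include MX1 with siE1, XAF1 and TLR3 with siE2, TLR3 with siE3, and XAF1 and TLR3 in the average. Without siC replicate 1, siE3 raised 8 members in place of 16 and the average raised 14 in place of 22, and without siC replicate 2, siE1 lowered 1 member in place of 2.

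**Figure D1:**
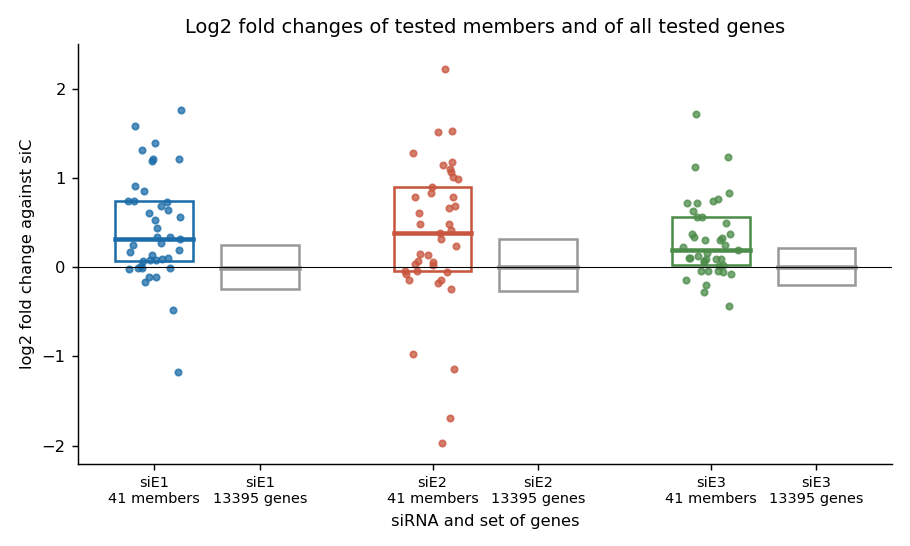
Log2 fold change against siC (vertical axis) of the 41 tested members (points, with coloured boxes) and of all 13395 tested genes (grey boxes) for each siRNA; boxes span the lower to the upper quartile and thick lines are medians. Member medians of 0.31, 0.39 and 0.19 lie above all-gene medians near 0, and 4 members lie near or below -1 with siE2.

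All 3 siRNAs raised 7 members, namely IFIT1, IFI35, IFIH1, IRF1, IRF9, SAMD9 and GBP2, which is 17.1% of the 41 tested, while 8.73% of all tested genes were raised by all 3. No member was lowered by all 3, against 7.42% of all genes. Another 12 members rose with 2 of the siRNAs. They were IFIT2, IFIT3, IFI6, DHX58 and ISG20 with siE1 and siE2, IFI44 and ISG15 with siE1 and siE3, and IFITM3, SAMD9L, TRIM21, GBP1 and TLR3 with siE2 and siE3. USP18 fell with siE1 and siE2, and ADAR with siE1 and siE3. The other calls came from 1 siRNA each, for 14 members (34.1%, against 29.1% of all genes). The 6 members IFIT5, HERC6, OAS2, IRF2, IRF3 and SP100 had no call (14.6%, against 21.2% of all genes). No member was called higher with one siRNA and lower with another, whereas 10.7% of all tested genes were. The 3 comparisons share the siC libraries, so these overlaps are not independent of each other.

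**Figure D2:**
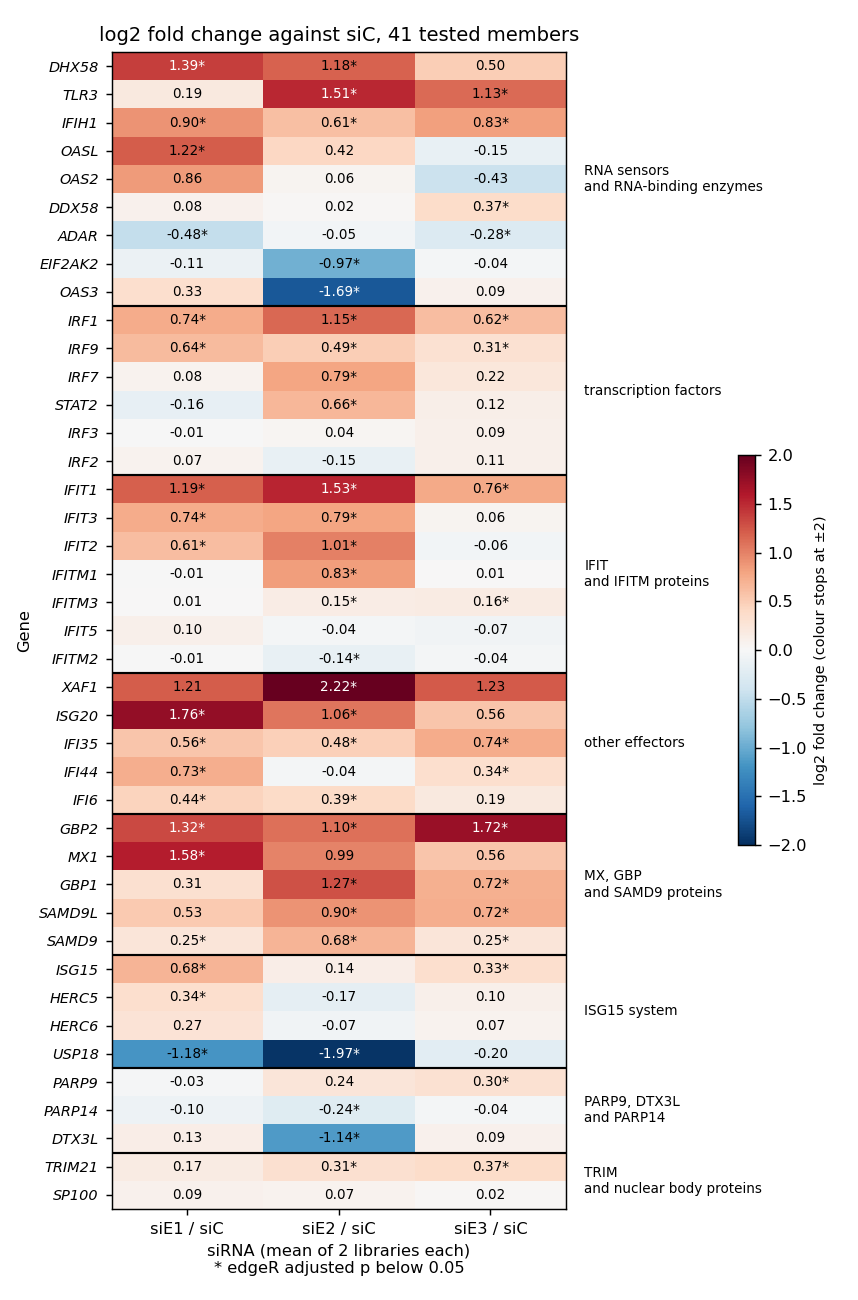
Log2 fold change against siC for the 41 tested members (rows, grouped by role) with siE1, siE2 and siE3 (columns, means of 2 libraries); an asterisk marks an edgeR adjusted p below 0.05. GBP2, IFIT1 and IRF1 are raised in all 3 columns, while OAS3, DTX3L and EIF2AK2 are lowered in the siE2 column alone and USP18 in the siE1 and siE2 columns.

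IFIH1 rose with all 3 siRNAs, DHX58 with siE1 and siE2, TLR3 with siE2 and siE3, and DDX58 with siE3. Of 10 listed sensors and RNA-binding enzymes, 9 were tested, and 3 rose and 1 fell with siE1, 3 rose and 2 fell with siE2, and 3 rose and 1 fell with siE3. Their shares called were 44.4%, 55.6% and 44.4%, against 50.3%, 56.4% and 42.1% of all tested genes. IFIH1 encodes MDA5, the sensor of long double-stranded RNA, and had 6.42 and 4.67 CPM in siE1 cells, 4.24 and 4.70 in siE2 cells, 4.43 and 5.97 in siE3 cells, and 2.51 and 3.34 in siC cells. All 6 siRNA libraries lay above both siC libraries. Its log2 fold changes were 0.90 ± 0.208 with siE1, 0.61 ± 0.216 with siE2 and 0.83 ± 0.211 with siE3 (edgeR adjusted p = 0.0020, 0.026 and 0.0053). DHX58 encodes LGP2, a partner of MDA5 without a signalling domain, and had 2.08 and 1.12 CPM in siE1 cells, 1.51 and 1.21 in siE2 cells, 0.731 and 0.952 in siE3 cells, and 0.502 and 0.686 in siC cells. The siE1 and siE2 libraries all lay above the siC libraries, with log2 fold changes of 1.39 ± 0.360 and 1.18 ± 0.373 (edgeR adjusted p = 0.0047 and 0.013), and siE3 stood at 0.50 (edgeR adjusted p = 0.36). DDX58, the gene of RIG-I, which binds short double-stranded RNA with a 5' triphosphate, had 146 and 144 CPM in siE1 cells, 138 and 139 in siE2 cells, 174 and 179 in siE3 cells, and 135 and 139 in siC cells. It rose with siE3 by 0.37 ± 0.0439 (edgeR adjusted p = 7.7e-06), and stood at 0.08 and 0.02 with siE1 and siE2 (edgeR adjusted p = 0.14 and 0.71). TLR3, the endosomal sensor of double-stranded RNA, was scarce, with 16 and 18 counts in siE1 cells, 33 and 49 in siE2 cells, 27 and 34 in siE3 cells, and 9 and 19 in siC cells. It did not reach the level of the filter on low counts in both siC libraries, so a fall could hardly have been called. The siE2 and siE3 libraries lay above both siC libraries and the siE1 libraries overlapped them, and the log2 fold changes were 0.19 ± 0.400 with siE1, 1.51 ± 0.333 with siE2 and 1.13 ± 0.353 with siE3 (edgeR adjusted p = 0.72, 0.0012 and 0.018). Some of these calls were lost with 1 choice of processing changed or 1 library left out, and the values in parentheses are then the adjusted p, after the log2 fold change where that moved by over 1.5 times, from edgeR unless another tool is named. The TLR3 rise with siE3, 1.71 without siC replicate 2, was lost by the DESeq2 Wald test (0.073), without siC replicate 1 (0.73 at 0.17) or siE3 replicate 2 (0.10), within a range over alternatives of 0.0064 to 0.17. The IFIH1 call with siE2 was lost by the DESeq2 Wald test (0.052), without siC replicate 1 (0.19) or siE2 replicate 2 (0.12), within a range over alternatives of 0.0055 to 0.19, and that with siE3 without siC replicate 1 (0.057) or siE3 replicate 2 (0.079), within a range over alternatives of 1.4e-04 to 0.079. The DHX58 call with siE1 was lost without siE1 replicate 1 (0.90 at 0.085), within a range over alternatives of 4.6e-04 to 0.085, and that with siE2 without siC replicate 1 (0.089) or siE2 replicate 1 (0.089), within a range over alternatives of 0.0036 to 0.089.

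EIF2AK2 and OAS3 fell with siE2 and did not pass the test with the other siRNAs. EIF2AK2 encodes PKR, the kinase that stops translation when it binds double-stranded RNA, and had 63.3 and 64.0 CPM in siE1 cells, 33.7 and 36.5 in siE2 cells, 63.7 and 69.3 in siE3 cells, and 69.7 and 67.6 in siC cells. The siE2 libraries lay far below the other 6. The log2 fold changes were -0.11 ± 0.0606 with siE1, -0.97 ± 0.0641 with siE2 and -0.04 ± 0.0606 with siE3 (edgeR adjusted p = 0.15, 7.5e-09 and 0.59), and the difference between siE2 and siE3 was -0.92 ± 0.0643 (edgeR adjusted p = 2.1e-08). OAS3, one of the 2'-5' oligoadenylate synthetases that activate RNase L, had 2.53 and 3.44 CPM in siE1 cells, 0.692 and 0.777 in siE2 cells, 2.33 and 2.73 in siE3 cells, and 2.19 and 2.57 in siC cells. Its log2 fold changes were 0.33 ± 0.206 with siE1, -1.69 ± 0.276 with siE2 and 0.09 ± 0.215 with siE3 (edgeR adjusted p = 0.20, 8.6e-05 and 0.78), and siE2 differed from siE1 as well by 2.03 ± 0.261 on the log2 scale, siE1 over siE2 (edgeR adjusted p = 8.8e-06). OASL, a relative without synthetase activity, instead rose with siE1, at 11.8 and 8.38 CPM in siE1 cells, 6.66 and 4.88 in siE2 cells, 3.06 and 4.72 in siE3 cells, and 3.06 and 5.53 in siC cells. The log2 fold change of OASL was 1.22 ± 0.243 with siE1 (edgeR adjusted p = 6.7e-04), and 0.42 and -0.15 with siE2 and siE3 (edgeR adjusted p = 0.20 and 0.72). The siE2 and siE3 libraries of OASL overlapped the siC libraries, which differed widely from each other. OAS2 had 5 to 15 counts and OAS1 0 to 3. ADAR, which edits adenosines in double-stranded RNA and so limits its detection, had 194 and 199 CPM in siE1 cells, 261 and 267 in siE2 cells, 225 and 227 in siE3 cells, and 282 and 267 in siC cells. The siE1 and siE3 libraries lay below both siC libraries, and the log2 fold changes were -0.48 ± 0.0434 with siE1, -0.05 ± 0.0430 with siE2 and -0.28 ± 0.0433 with siE3 (edgeR adjusted p = 2.9e-07, 0.30 and 9.1e-05). The calls of EIF2AK2 and OAS3 with siE2, of OASL with siE1 and of ADAR with siE1 and siE3 held under every alternative that gave a value. EIF2AK2, OAS3 and OASL were picked for this description after their values had been seen.

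Among the 6 transcription factors, IRF1 and IRF9 rose with all 3 siRNAs, and STAT2 and IRF7 rose with siE2. The shares called were 33.3%, 66.7% and 33.3% with siE1, siE2 and siE3, against 50.3%, 56.4% and 42.1% of all tested genes. IRF1, an early-induced activator that also keeps several antiviral genes at their basal level, had 22.7 and 23.8 CPM in siE1 cells, 34.1 and 27.6 in siE2 cells, 21.3 and 21.7 in siE3 cells, and 12.8 and 15.04 in siC cells. Every siRNA library lay above both siC libraries, and the log2 fold changes were 0.74 ± 0.109 with siE1, 1.15 ± 0.106 with siE2 and 0.62 ± 0.110 with siE3 (edgeR adjusted p = 4.5e-05, 2.7e-07 and 3.1e-04). The rise with siE2 exceeded that with siE3 by 0.52 ± 0.1001 (edgeR adjusted p = 5.2e-04). IRF9, the DNA-binding subunit of the interferon-activated complex ISGF3, had 22.4 and 24.7 CPM in siE1 cells, 21.2 and 21.3 in siE2 cells, 19.7 and 17.9 in siE3 cells, and 15.7 and 14.7 in siC cells. Its log2 fold changes were 0.64 ± 0.0896 with siE1, 0.49 ± 0.0909 with siE2 and 0.31 ± 0.0925 with siE3 (edgeR adjusted p = 2.9e-05, 3.0e-04 and 0.014). STAT2, another ISGF3 subunit, was called with siE2 at 0.66 ± 0.110 (edgeR adjusted p = 1.1e-04) and stood at -0.16 and 0.12 with siE1 and siE3 (edgeR adjusted p = 0.27 and 0.43). The STAT2 libraries held 20.2 and 26.2 CPM in siE1 cells, 41.5 and 40.95 in siE2 cells, 31.5 and 25.3 in siE3 cells, and 27.4 and 24.8 in siC cells. IRF7, which drives the interferon-α genes and is itself induced by interferon, stood at 0.79 ± 0.146 with siE2 (edgeR adjusted p = 2.9e-04) and at 0.08 and 0.22 with siE1 and siE3 (edgeR adjusted p = 0.72 and 0.27). Both STAT2 and IRF7 were higher with siE2 than with siE1, by log2 differences (siE1 over siE2) of -0.82 and -0.71 (edgeR adjusted p = 1.4e-05 and 6.0e-04). IRF3, the constitutive factor downstream of the sensors, stayed within -0.01 to 0.09, and the repressor IRF2 within -0.15 to 0.11, without a call. The IRF9 call with siE3 was lost without siC replicate 2 (0.11) or siE3 replicate 1 (0.11), within a range over alternatives of 0.0097 to 0.11.

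Of the IFIT genes, which lie together on chromosome 10 and encode proteins that bind foreign RNA ends, IFIT1 rose with all 3 siRNAs, and IFIT2 and IFIT3 with siE1 and siE2. IFIT1 had 41.3 and 33.3 CPM in siE1 cells, 49.4 and 44.8 in siE2 cells, 26.1 and 29.2 in siE3 cells, and 15.1 and 17.5 in siC cells. All siRNA libraries lay above both siC libraries, and the siE3 libraries lay below those of siE1 and siE2. Its log2 fold changes were 1.19 ± 0.109 with siE1, 1.53 ± 0.107 with siE2 and 0.76 ± 0.113 with siE3 (edgeR adjusted p = 3.3e-07, 1.3e-08 and 6.1e-05). IFIT2 had 50.6 and 45.5 CPM in siE1 cells, 70.7 and 55.7 in siE2 cells, 26.4 and 33.9 in siE3 cells, and 27.7 and 35.05 in siC cells, and IFIT3, which binds and stabilises IFIT1, had 96.9 and 81.4 CPM in siE1 cells, 101 and 82.7 in siE2 cells, 43.7 and 66.7 in siE3 cells, and 47.6 and 58.5 in siC cells. For both genes the siE1 and siE2 libraries lay above the siC libraries while the siE3 libraries overlapped them. The log2 fold changes of IFIT2 were 0.61 ± 0.128 with siE1, 1.01 ± 0.126 with siE2 and -0.06 ± 0.134 with siE3 (edgeR adjusted p = 1.0e-03, 6.3e-06 and 0.76). Those of IFIT3 were 0.74 ± 0.148 with siE1, 0.79 ± 0.148 with siE2 and 0.06 ± 0.154 with siE3 (edgeR adjusted p = 6.6e-04, 3.2e-04 and 0.79). With siE2 rather than siE3, IFIT1, IFIT2 and IFIT3 were higher by 0.77, 1.06 and 0.73 on the log2 scale (edgeR adjusted p = 1.4e-05, 5.6e-06 and 8.1e-04). IFIT5, another gene of the cluster, stood at 0.10, -0.04 and -0.07, without a call. The siE3 libraries differed from each other in IFIT3 by 0.61 (log2, replicate 2 over replicate 1), next to mean rises of 0.74 and 0.79 with siE1 and siE2.

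**Figure D3:**
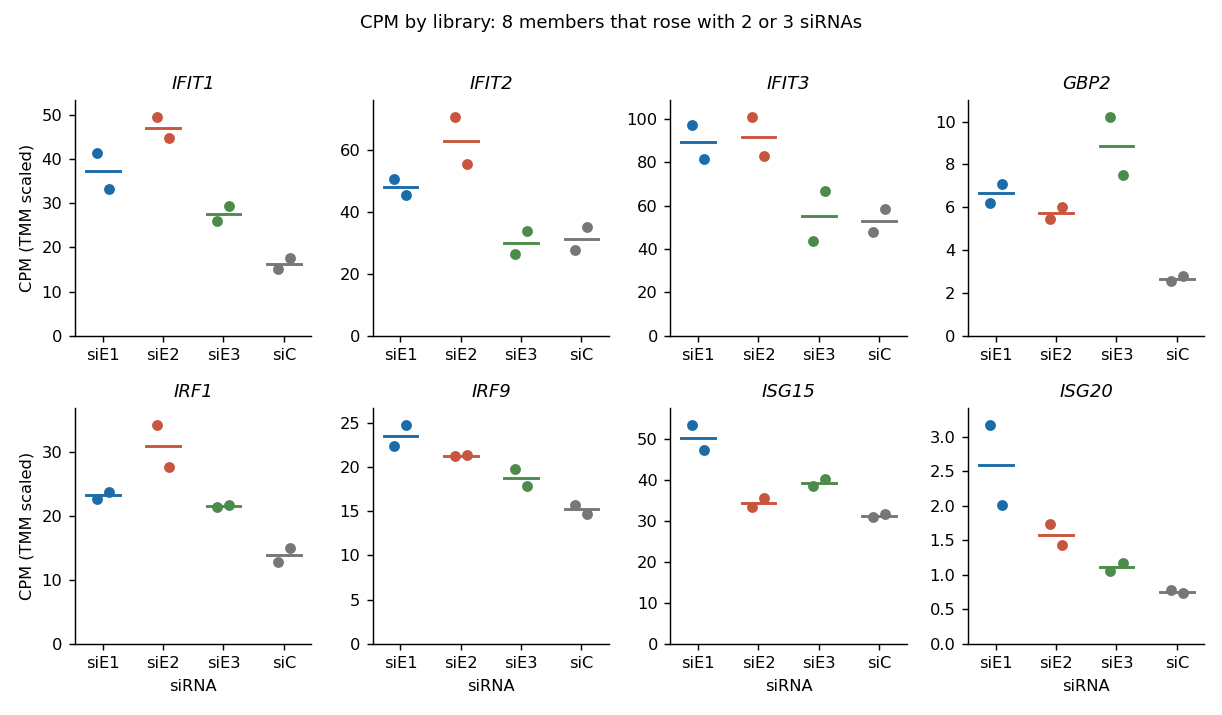
CPM (vertical axes, each from 0) in the 8 libraries for 8 members that rose with 2 or 3 siRNAs; points are libraries and short lines are means of 2. All siRNA points for IFIT1, GBP2, IRF1, IRF9, ISG15 and ISG20 lie above the siC points, and for IFIT2 and IFIT3 the siE3 points overlap them.

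The IFITM genes, whose membrane proteins hold back virus entry, had calls below 0.2 in size on the log2 scale or at low counts. IFITM3 had 187 and 178 CPM in siE1 cells, 207 and 193 in siE2 cells, 201 and 203 in siE3 cells, and 174 and 187 in siC cells, with log2 fold changes of 0.01, 0.15 and 0.16, the last 2 called (edgeR adjusted p = 0.021 and 0.018). IFITM2 was at -0.14 with siE2 (edgeR adjusted p = 0.033), and IFITM1, with 32 to 80 counts, at 0.83 ± 0.238 (edgeR adjusted p = 0.0073). The IFITM3 call with siE2 was lost without siC replicate 1 (0.09 at 0.22) or siE2 replicate 1 (0.10 at 0.21), within a range over alternatives of 0.0034 to 0.22, and that with siE3 without siC replicate 1 (0.19) or siE3 replicate 2 (0.057), within a range over alternatives of 0.0072 to 0.19. The IFITM1 call was lost without siC replicate 2 (0.073) or siE2 replicate 1 (0.10), within a range over alternatives of 0.0015 to 0.10. The IFITM2 call was lost with scaling by library size only (0.13), with the stricter filter (0.055), by the DESeq2 Wald test (0.096), without siC replicate 1 (0.076), siC replicate 2 (0.13), siE2 replicate 1 (0.052) or siE2 replicate 2 (0.18), within a range over alternatives of 0.029 to 0.18. IFITM1, IFITM2 and IFITM3 share long stretches of sequence, and the sources used here do not give how shared reads were counted, so their separate values are uncertain.

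GBP2 rose with all 3 siRNAs by more than 1 on the log2 scale, and of the 5 tested members among the MX, GBP and SAMD9 genes 3, 4 and 4 rose with siE1, siE2 and siE3. Calls in either direction made up 60%, 80% and 80% of the 5, against 50.3%, 56.4% and 42.1% of all tested genes. GBP1 and GBP2 encode guanylate-binding proteins, GTPases that attack the vacuoles of intracellular pathogens and answer mainly to interferon-γ and IRF1. GBP2 had 6.19 and 7.10 CPM in siE1 cells, 5.45 and 5.998 in siE2 cells, 10.2 and 7.48 in siE3 cells, and 2.56 and 2.79 in siC cells. All 6 siRNA libraries were at least 5.45 CPM, and the log2 fold changes were 1.32 ± 0.184 with siE1, 1.10 ± 0.190 with siE2 and 1.72 ± 0.178 with siE3 (edgeR adjusted p = 2.7e-05, 1.5e-04 and 1.8e-06). GBP1 had 3.30 and 3.40 CPM in siE1 cells, 6.83 and 6.21 in siE2 cells, 4.89 and 3.98 in siE3 cells, and 2.37 and 2.999 in siC cells. The siE2 libraries were highest and the log2 fold changes were 0.31 ± 0.188 with siE1, 1.27 ± 0.169 with siE2 and 0.72 ± 0.181 with siE3 (edgeR adjusted p = 0.18, 1.2e-05 and 0.0049). SAMD9 and SAMD9L, neighbouring genes on chromosome 7 that restrict poxviruses, both rose, SAMD9 with all 3 siRNAs and SAMD9L with siE2 and siE3. SAMD9 had 37.1 and 35.3 CPM in siE1 cells, 51.4 and 46.3 in siE2 cells, 35.8 and 36.5 in siE3 cells, and 30.3 and 30.6 in siC cells, with log2 fold changes of 0.25 ± 0.0702 with siE1, 0.68 ± 0.0686 with siE2 and 0.25 ± 0.0707 with siE3 (edgeR adjusted p = 0.0082, 6.9e-07 and 0.011). SAMD9L had 4.43 and 3.36 CPM in siE1 cells, 5.88 and 4.10 in siE2 cells, 5.03 and 3.81 in siE3 cells, and 2.60 and 2.74 in siC cells, with log2 fold changes of 0.53 ± 0.226 with siE1, 0.90 ± 0.218 with siE2 and 0.72 ± 0.223 with siE3 (edgeR adjusted p = 0.063, 0.0024 and 0.017). MX1, the classical interferon-induced GTPase against influenza viruses, was near the limit of counting, with 32 and 35 counts in siE1 cells, 22 and 21 in siE2 cells, 4 and 27 in siE3 cells, and 8 and 13 in siC cells. It was called with siE1 at 1.58 ± 0.486 (edgeR adjusted p = 0.014), and the siE3 libraries lay on both sides of the siC libraries. MX1 did not reach the level of the filter on low counts in both siC libraries, so a fall could hardly have been called. The MX1 call was lost without siC replicate 1 (0.087), within a range over alternatives of 7.3e-04 to 0.087. The GBP1 call with siE3 was lost without siC replicate 1 (0.057) or siE3 replicate 1 (0.058), within a range over alternatives of 8.8e-04 to 0.058. The SAMD9 call with siE1 was lost without siE1 replicate 1 (0.065), within a range over alternatives of 0.0056 to 0.065, and that with siE3 without siC replicate 1 (0.055), within a range over alternatives of 0.0079 to 0.055. The SAMD9L call with siE2 was lost without siE2 replicate 1 (0.053), within a range over alternatives of 4.5e-05 to 0.053, and that with siE3 without siC replicate 1 (0.072), siC replicate 2 (0.058) or siE3 replicate 1 (0.16), within a range over alternatives of 0.0017 to 0.16.

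ISG15 rose with siE1 and siE3, and its protease USP18 fell with siE1 and siE2. ISG15, a ubiquitin-like protein joined to other proteins during the interferon response, had 53.3 and 47.3 CPM in siE1 cells, 33.3 and 35.6 in siE2 cells, 38.5 and 40.2 in siE3 cells, and 31.0 and 31.6 in siC cells. All siRNA libraries lay above the siC libraries, although siE2 only slightly, and the log2 fold changes were 0.68 ± 0.0717 with siE1, 0.14 ± 0.0744 with siE2 and 0.33 ± 0.0736 with siE3 (edgeR adjusted p = 1.4e-06, 0.12 and 0.0020). With siE1 it was higher than with siE2 by 0.54 ± 0.0708 (edgeR adjusted p = 9.7e-06). USP18, which removes ISG15 and also blocks the interferon receptor, had 14 and 13 counts in siE1 cells, 7 and 8 in siE2 cells, 20 and 30 in siE3 cells, and 24 and 34 in siC cells. The siE1 and siE2 libraries lay below the other 4, and the log2 fold changes were -1.18 ± 0.326 with siE1, -1.97 ± 0.372 with siE2 and -0.20 ± 0.286 with siE3 (edgeR adjusted p = 0.0071, 3.4e-04 and 0.60). The difference between siE2 and siE3 was -1.76 ± 0.384 (edgeR adjusted p = 0.0014). HERC5, the ligase that attaches ISG15, rose with siE1 by 0.34 ± 0.0891 (edgeR adjusted p = 0.0047) and stood at -0.17 and 0.10 with siE2 and siE3. HERC6, which does the same in mice, stood at 0.27, -0.07 and 0.07, without a call. The USP18 call with siE1 was lost by the DESeq2 Wald test (0.078), without siC replicate 2 (0.082) or siE1 replicate 2 (0.072), within a range over alternatives of 0.0041 to 0.082.

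PARP9 and DTX3L, whose proteins work as a pair, had unlike values with siE2, under which DTX3L fell and PARP9 was not called. DTX3L is a ubiquitin ligase and PARP9 its ADP-ribosylating partner, and RefSeq gives their closest starts on chromosome 3 as 38 bases apart on opposite strands, so that the response element word printed above for DTX3L lies in windows of both. DTX3L had 46.0 and 49.9 CPM in siE1 cells, 20.4 and 19.4 in siE2 cells, 45.5 and 47.6 in siE3 cells, and 45.5 and 42.1 in siC cells. The siE2 libraries lay far below the other 6, and the log2 fold changes were 0.13 ± 0.0672 with siE1, -1.14 ± 0.0742 with siE2 and 0.09 ± 0.0677 with siE3 (edgeR adjusted p = 0.11, 6.5e-09 and 0.31). PARP9 had 9.94 and 10.1 CPM in siE1 cells, 13.4 and 10.7 in siE2 cells, 12.4 and 12.7 in siE3 cells, and 10.3 and 10.1 in siC cells. Both siE2 libraries of PARP9 lay above the siC libraries, and the log2 fold changes were -0.03 ± 0.119 with siE1, 0.24 ± 0.116 with siE2 and 0.30 ± 0.116 with siE3 (edgeR adjusted p = 0.87, 0.092 and 0.048). PARP14, a neighbouring gene for another ADP-ribosyltransferase, had 27.1 and 28.4 CPM in siE1 cells, 25.8 and 24.7 in siE2 cells, 31.9 and 26.2 in siE3 cells, and 30.9 and 28.9 in siC cells, and its log2 fold change with siE2 was -0.24 ± 0.0892 (edgeR adjusted p = 0.029). DTX3L was lower with siE2 than with siE1 and siE3 as well, at 1.27 ± 0.0733 for siE1 over siE2 and -1.23 ± 0.0738 for siE2 over siE3 (edgeR adjusted p = 1.6e-09 and 4.5e-09). The siE2 call of DTX3L held under every alternative. The PARP9 call with siE3 was lost with scaling by library size only (0.051), by the DESeq2 Wald test (0.14), by limma-voom (0.051), without siC replicate 1 (0.11), siC replicate 2 (0.17), siE1 replicate 1 (0.056), siE1 replicate 2 (0.057), siE3 replicate 1 (0.10) or siE3 replicate 2 (0.14), within a range over alternatives of 0.029 to 0.17. The PARP14 call with siE2 was lost with scaling by library size only (0.085), by the DESeq2 Wald test (0.062), without siC replicate 1 (0.16), siE2 replicate 1 (0.065) or siE2 replicate 2 (0.13), within a range over alternatives of 0.0099 to 0.16. The sources used here do not give the strand setting of the counts, and reads where such neighbours overlap cannot be told apart, and DTX3L was picked for description after its values had been seen.

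**Figure D4:**
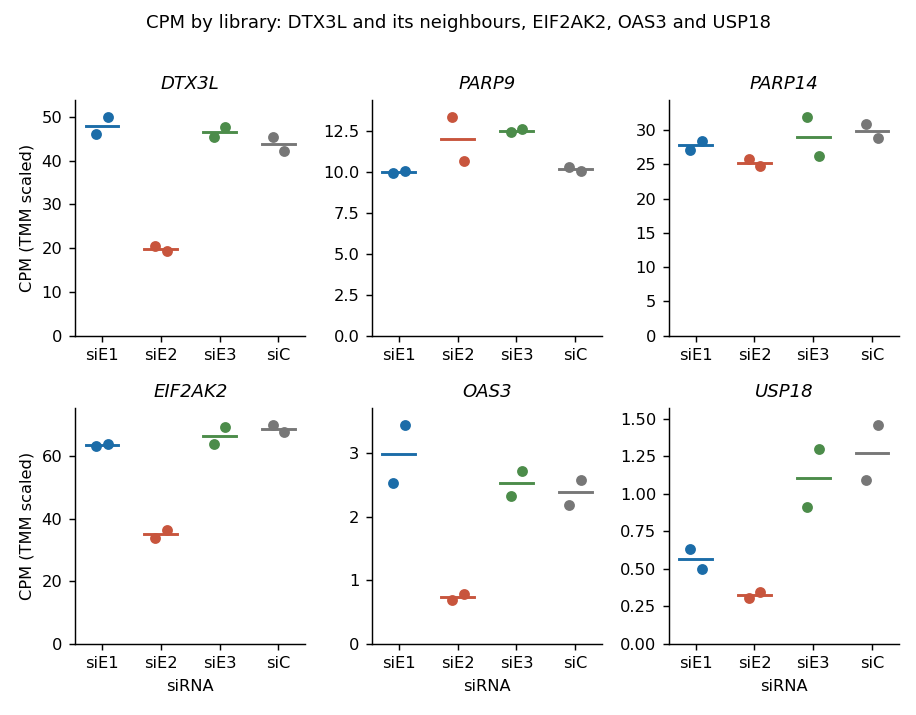
CPM (vertical axes, each from 0) in the 8 libraries for DTX3L, PARP9, PARP14, EIF2AK2, OAS3 and USP18; points are libraries and short lines are means of 2. The siE2 points of DTX3L, EIF2AK2 and OAS3 lie below those of the other 3 siRNAs, PARP9 shows no such drop, and USP18 is low with both siE1 and siE2.

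Of the 9 other effectors, 5 were tested, and 4 rose with siE1, 4 with siE2 and 2 with siE3. Calls in either direction made up 80%, 80% and 40% of the 5, against 50.3%, 56.4% and 42.1% of all tested genes. TRIM21 and SP100, also given here, are not among the 9 and belong to a set of TRIM and nuclear body proteins. Of that set 2 were tested, and 0%, 50% and 50% were called, next to the same all-gene shares. ISG20, an exonuclease that degrades single-stranded RNA, had 3.16 and 2.01 CPM in siE1 cells, 1.73 and 1.42 in siE2 cells, 1.05 and 1.17 in siE3 cells, and 0.776 and 0.728 in siC cells. From highest to lowest the libraries ranked siE1, siE2, siE3 and siC without overlap, and the log2 fold changes were 1.76 ± 0.290 with siE1, 1.06 ± 0.320 with siE2 and 0.56 ± 0.346 with siE3 (edgeR adjusted p = 1.3e-04, 0.010 and 0.21). IFI35, a small leucine zipper protein released as a danger signal, had 19.9 and 20.03 CPM in siE1 cells, 19.4 and 18.5 in siE2 cells, 23.5 and 21.8 in siE3 cells, and 12.5 and 14.7 in siC cells. Its log2 fold changes were 0.56 ± 0.0956 with siE1, 0.48 ± 0.0966 with siE2 and 0.74 ± 0.0950 with siE3 (edgeR adjusted p = 1.8e-04, 5.5e-04 and 1.6e-05). IFI44, a cytoplasmic antiviral protein, had 22.1 and 19.5 CPM in siE1 cells, 12.5 and 11.9 in siE2 cells, 14.03 and 17.7 in siE3 cells, and 11.05 and 14.01 in siC cells. It differed between siRNAs, with log2 fold changes of 0.73 ± 0.125 with siE1, -0.04 ± 0.134 with siE2 and 0.34 ± 0.130 with siE3 (edgeR adjusted p = 1.9e-04, 0.80 and 0.047). IFI6, a small inhibitor of cell death and of flaviviruses, had 9.89 and 10.7 CPM in siE1 cells, 9.73 and 10.1 in siE2 cells, 8.50 and 8.78 in siE3 cells, and 7.21 and 7.93 in siC cells, with log2 fold changes of 0.44 ± 0.113 with siE1, 0.39 ± 0.114 with siE2 and 0.19 ± 0.117 with siE3 (edgeR adjusted p = 0.0044, 0.0091 and 0.21). XAF1, a promoter of apoptosis, had 6 and 14 counts in siE1 cells, 25 and 14 in siE2 cells, 11 and 8 in siE3 cells, and 4 and 4 in siC cells. The log2 fold changes of XAF1 were 1.21 ± 0.600 with siE1, 2.22 ± 0.517 with siE2 and 1.23 ± 0.606 with siE3 (edgeR adjusted p = 0.11, 0.0018 and 0.12). XAF1 passed the filter on low counts through siRNA libraries, so a fall could hardly have been called. TRIM21, the cytosolic antibody receptor, had 17.1 and 19.8 CPM in siE1 cells, 21.1 and 19.9 in siE2 cells, 21.6 and 21.2 in siE3 cells, and 18.8 and 14.3 in siC cells, with log2 fold changes of 0.17 ± 0.116 with siE1, 0.31 ± 0.115 with siE2 and 0.37 ± 0.115 with siE3 (edgeR adjusted p = 0.25, 0.030 and 0.016). SP100, a nuclear body protein, was within 0.02 to 0.09, without a call. The siC libraries differed for TRIM21, whose log2 fold changes with siE2 and siE3 were 0.52 and 0.58 without siC replicate 1, and 0.12 and 0.19 without siC replicate 2. The TRIM21 call with siE2 was lost by the DESeq2 Wald test (0.054), without siC replicate 2 (0.12 at 0.40), siE2 replicate 1 (0.15) or siE2 replicate 2 (0.054), within a range over alternatives of 0.0021 to 0.40, and that with siE3 without siC replicate 2 (0.19 at 0.24) or siE3 replicate 1 (0.064), within a range over alternatives of 0.0014 to 0.24. The IFI44 rise with siE3, 0.52 without siC replicate 2, was lost by the DESeq2 Wald test (0.077), by limma-voom (0.053), without siC replicate 1 (0.18 at 0.36), siE2 replicate 1 (0.053), siE2 replicate 2 (0.056) or siE3 replicate 2 (0.16 at 0.43), within a range over alternatives of 0.013 to 0.43. The IFI6 call with siE2 was lost without siC replicate 1 (0.076) or siE2 replicate 2 (0.053), within a range over alternatives of 0.0051 to 0.076. The ISG20 call with siE2 was lost without siC replicate 2 (0.057) or siE2 replicate 1 (0.073), within a range over alternatives of 0.0032 to 0.073.

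The interferon genes themselves were at or near 0 counts. IFNB1 had 0 counts in all 8 libraries, where the limit a count of 0 allows (3 counts per library) is 0.116 to 0.137 CPM. This limit covers counting error only. Of 20 other interferon genes (13 interferon-α genes, and IFNW1, IFNE, IFNK, IFNG, IL28A, IL28B and IL29), 19 had 0 counts throughout and IL29 had 0 to 2. The chemokine genes CXCL10 and CXCL11, strong targets of interferon, had 0 to 1 and 0 to 5 counts. Several genes that interferon is known to raise strongly were likewise scarce in all groups, with 0 to 6 counts for IFI27, 2 to 9 for IFI44L, 0 to 7 for MX2, 0 to 3 for OAS1, 0 to 5 for RSAD2, 0 to 2 for BST2 and 0 to 2 for TRIM22. These 7 and IFNB1, CXCL10 and CXCL11 are the 10 members that were not tested.

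JAK1, IL10RB and IFNGR2, upstream of the members, rose in the average of the 3 siRNAs, and STAT3 fell. All 11 receptor and JAK-STAT genes were tested, and 3 rose and 2 fell in the average of the 3 siRNAs (median log2 fold change -0.06, all genes -0.01), with 5, 3 and 4 higher and 2, 2 and 2 lower under siE1, siE2 and siE3. In the average 45.5% of the 11 were called, against 51.1% of all tested genes. With siE1, siE2 and siE3 the shares were 63.6%, 45.5% and 54.5%, against 50.3%, 56.4% and 42.1% of all genes. JAK1, a kinase of the type I receptor, rose by 0.23 ± 0.0460 and IL10RB, a subunit of the type III receptor, by 0.61 ± 0.0727 (edgeR adjusted p = 7.7e-04 and 5.5e-06), and IFNGR2 of the interferon-γ receptor by 0.18 (edgeR adjusted p = 0.020). STAT3, a factor activated by interferons and by interleukins, fell by 0.33 on the log2 scale (edgeR adjusted p = 1.3e-06), with -0.11 and -1.11 under siE1 and siE2, both called lower, and 0.24 under siE3, called higher. IFNAR1, IFNAR2, IFNGR1, IL28RA, JAK2 and TYK2 were not called in the average, at -0.08, -0.19, -0.09, 0.16, -0.06 and -0.05. Some of these averages join unlike values. IFNAR1, a subunit of the type I receptor, had log2 fold changes of -0.54 ± 0.0601 with siE1, 0.13 ± 0.0580 with siE2 and 0.17 ± 0.0579 with siE3 (edgeR adjusted p = 2.5e-06, 0.079 and 0.027). IFNGR1 of the interferon-γ receptor had 0.17 ± 0.0642 with siE1, 0.34 ± 0.0638 with siE2 and -0.79 ± 0.0687 with siE3 (edgeR adjusted p = 0.034, 3.5e-04 and 2.7e-07). IL28RA of the type III receptor had 0.98 ± 0.393 with siE1, -0.96 ± 0.535 with siE2 and 0.45 ± 0.432 with siE3 (edgeR adjusted p = 0.049, 0.14 and 0.44). IFNAR1 was thus called lower with siE1 and higher with siE3, and IFNGR1 higher with siE1 and siE2 and lower with siE3. The IFNGR2 call was lost by the DESeq2 Wald test (0.074), without siC replicate 1 (0.078), siC replicate 2 (0.14) or siE1 replicate 2 (0.051), within a range over alternatives of 0.014 to 0.14. IFNAR2 and IFNGR1 were called without siE3 replicate 1 (-0.22 and -0.13, edgeR adjusted p = 0.043 and 0.045), over ranges of 0.043 to 0.35 and 0.045 to 0.38.

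Of 23 adaptors and kinases downstream of the sensors, 17 were tested, and 3 rose and 3 fell in the average (median -0.00), with 5, 4 and 3 higher and 3, 6 and 4 lower under siE1, siE2 and siE3. In the average 35.3% of the 17 were called, against 51.1% of all tested genes. With siE1, siE2 and siE3 the shares were 47.1%, 58.8% and 41.2%, against 50.3%, 56.4% and 42.1% of all genes. MAVS, the mitochondrial adaptor shared by RIG-I and MDA5, rose by 0.57 ± 0.0467 (edgeR adjusted p = 1.2e-07) and stood at 0.54, 0.70 and 0.46 with siE1, siE2 and siE3. TANK, a scaffold for TBK1, rose by 0.35, and the ubiquitin ligase TRAF3 and the double-stranded RNA binder TARBP2 fell by 0.32 and 0.30 on the log2 scale (edgeR adjusted p = 3.7e-04, 5.7e-06 and 4.2e-04). TANK and TRAF3 were called with each siRNA, while TARBP2 was called with siE2 alone, at -0.79 (edgeR adjusted p = 2.6e-07), and stood at -0.05 and -0.05 with siE1 and siE3. All 22 negative regulators were tested, and 6 rose and 6 fell in the average (median -0.06), with 6, 6 and 5 higher and 5, 6 and 2 lower under siE1, siE2 and siE3. Their share called was 54.5% in the average, and 50%, 54.5% and 31.8% with siE1, siE2 and siE3, next to the same all-gene shares. SOCS1, an inhibitor of JAK kinases, rose by 1.50 ± 0.238, with 100 and 86 counts in siE1 cells, 39 and 30 in siE2 cells, 48 and 50 in siE3 cells, and 17 and 20 in siC cells (edgeR adjusted p = 8.3e-05). SAMHD1, which depletes nucleotides and so restricts retroviruses, rose by 0.96 ± 0.0501, and IRF2BP2, a corepressor of IRF2, by 0.47 (edgeR adjusted p = 1.0e-09 and 8.2e-07). The phosphatase PTPN1 was at -0.35 in the average (edgeR adjusted p = 1.6e-06), with -1.18 under siE2 against 0.09 and 0.02 under siE1 and siE3. Of 50 other genes known to respond to interferon, 40 were tested, and 17 rose and 6 fell in the average (median 0.15), with 17, 17 and 13 higher and 6, 9 and 6 lower under siE1, siE2 and siE3. Of these 40, 57.5% were called in the average, against 51.1% of all tested genes. The shares with siE1, siE2 and siE3 were 57.5%, 65% and 47.5%, against 50.3%, 56.4% and 42.1%. The secreted LGALS3BP rose by 0.45 ± 0.0342, the torsin TOR1B by 0.62 ± 0.0555 and the helicase PRIC285 by 0.58 ± 0.0577 (edgeR adjusted p = 5.1e-08, 2.9e-07 and 8.5e-07). TOR1B was not called with siE3, at 0.13. The inflammatory caspase CASP4 stood at -0.41 ± 0.0434 in the average (edgeR adjusted p = 1.6e-06), and at -0.13 with siE1, not called. By comparison the 41 tested members had 22 rises, 4 falls and a median of 0.34 in the average. These lists were drawn up with earlier results of these libraries known.

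The siRNAs differed from each other in many members. They left 16.3%, 12.6% and 13.2% of the siC level of ESRRA with siE1, siE2 and siE3, and ESRRA was higher with siE1 than with siE2 (log2 difference 0.37 ± 0.108) and than with siE3 (0.30 ± 0.108, edgeR adjusted p = 0.0092 and 0.031). Between siE1 and siE2, 21 of the 41 tested members differed, against 57.1% of all genes. Between siE1 and siE3 the number was 19, against 48.7%, and between siE2 and siE3 it was 20, against 48.5%, and the members' shares of 51.2%, 46.3% and 48.8% were near these background shares. The siE1 against siE3 number was 10 without siE1 replicate 1, 12 without siE1 replicate 2 and 11 without siE3 replicate 1. Among the tested members that differed, the widest gaps on the log2 scale were 2.03 ± 0.261 for OAS3 (siE1 over siE2), 1.36 ± 0.248 for OASL (siE1 over siE3) and -1.78 ± 0.273 for OAS3 (siE2 over siE3), with edgeR adjusted p = 8.8e-06, 3.4e-04 and 6.9e-05. ISG20, OASL, ISG15, IFI44, IFIT5 and HERC5 were higher with siE1 than with either other siRNA, and GBP1, STAT2, IRF1, IRF7, IFIT1, IFIT2, SAMD9, IFITM1 and ADAR were higher with siE2 than with either. GBP2, DDX58 and USP18 were higher with siE3 than with siE1 or siE2. By the authors' deposited table, 17, 20 and 10 of the 51 members had an adjusted p below 0.05 with siE1, siE2 and siE3. All of these were called here with the same direction.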

How the data were processed

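RNA-seq libraries came from MDA-MB-231 cells given siE1, siE2, siE3 or siC, 2 libraries each, and the deposited whole numbers are unnormalised read counts per gene symbol, per the file headers. Per the submitters' processing notes, reads were handled with TopHat 1.3.3, HTSeq and DESeq on build hg19; the sources used here do not give the strand setting or annotation. The same deposited table holds the authors' linear ratio (fold change) and adjusted p-value for each siRNA, used here to compare calls only.

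From the counts, edgeR 4.0.16 (R 4.3.3) was run over all 8 libraries with TMM scaling, its default expression filter (13395 of 23368 genes kept), a mean per group and the quasi-likelihood test. P-values were adjusted by Benjamini-Hochberg over all tested genes in each comparison, and calls were made below 0.05. Comparisons were each siRNA against siC, their average against siC, and every pair of ESRRA siRNAs. The script was tested on simulated data. Alternatives were other scalings, no filter or a stricter one, the DESeq2 1.42.0 Wald test, limma 3.58.1 voom, only the groups compared, a replicate block and leaving out each library. Blood markers, ESRRA and depths of 21835995 to 25880548 counts were checked first. Standard errors are the size of the log2 change divided by the square root of the F value of the quasi-likelihood test. They include the spread between libraries of a group, estimated over all 8 libraries and drawn towards that of other genes. The limit for a count of 0 covers counting error only.

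The members and gene lists were chosen with earlier results of these data known. Values in every library are given for tested members called the same way with at least 2 siRNAs, or called in the average with a log2 change of at least 0.58 in size. DDX58, STAT2, MX1, PARP9 and PARP14 fall outside this rule, and their values in every library are given as well. Other members are given in short or as a count range, unless said to be picked after their values were seen. Up to 4 genes with the smallest p were named from each other list, and the receptor list in full, except for a gene that is not reported here. IFNLR1 and HELZ2 were read under their older symbols IL28RA and PRIC285. Promoter windows are those of RefSeq on GRCh38.p14 and were not joined to hg19 positions.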

Additional observations from a re-analysis of the deposited data

How the results depend on the processing

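Of 19 member calls with siE1, 15 held under every one of up to 16 alternatives that gave a value, as did 17 of 27 with siE2 and 7 of 17 with siE3. None of these 63 calls, nor of the 22 member averages that were tested again, changed direction, and single-siRNA values that were not called were not run again. For counts of members, 83 of 86 values under other scalings, filters, tools or the block stayed within 1.5 times the main count. The exceptions were 1 member lower with siE1 (in place of 2) under the stricter filter and under the DESeq2 Wald test, and 11 members differing between siE1 and siE3 (in place of 19) under the DESeq2 Wald test. Leaving out 1 library at a time gave 1 to 2 members lower with siE1, 8 to 15 higher with siE3, 14 to 24 higher in the average, and 10 to 19 differing between siE1 and siE3. The cause was not tested. The siE1 median of the members was 0.45 without siC replicate 2, in place of 0.31. IL28RA, not called at 0.16 in the average, stood at -0.053 without siC replicate 2 and at -0.045 without siE1 replicate 2, within -0.053 to 0.38 over all libraries left out.

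Same-numbered libraries had deviations from their group means correlated at -0.18 to 0.11 over all tested genes. Such values from 2 libraries per group cannot decide whether replicate numbers pair the samples. With the replicate block the members higher and lower were 18 and 2 with siE1, 21 and 5 with siE2, 14 and 1 with siE3, and 21 and 4 in the average, and 19, 17 and 19 differed between siE1 and siE2, siE1 and siE3, and siE2 and siE3. The calls of IFI44 and PARP9 with siE3, IFITM2 with siE2 and IFITM3 in the average were not made under it. The 10 untested members, at 9 counts or fewer, could show only large differences at this depth, and 2 libraries per group limit the precision of all others.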

Other observations

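Some members moved together between the 2 libraries of a group. Examples, picked after their values were seen, are IFIT1, IFIT2, IFIT3, IFI44, IFIH1, DHX58, MX1 and OASL. Their log2 ratios of replicate 2 over replicate 1 were 0.21 to 0.84 with siC and 0.17 to 2.22 with siE3. With siE1 they were -0.84 to -0.09, and with siE2 only IFIH1 of these was positive. STAT2, IRF2 and IRF9 had the opposite signs with siC, siE1 and siE3. The cause was not tested. The median log2 ratio of replicate 2 over replicate 1 across the 41 tested members was -0.01 with siE1, -0.06 with siE2, 0.03 with siE3 and 0.10 with siC, and 20, 16, 26 and 26 members were higher in replicate 2. Of all tested genes, 48.4%, 49.4%, 51.2% and 52.4% were. The SD of these ratios among members was 0.29 with siE1, 0.25 with siE2, 0.44 with siE3 and 0.27 with siC. For all tested genes it was 0.23, 0.23, 0.25 and 0.25. The spread among members was widest with siE3, where MX1 had 4 counts in one library and 27 in the other. The siC libraries enter all 3 comparisons with siC.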
